A study of Mus musculus with 550 samples.

Results

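The comparison described here asks how the jejunum of C57Bl/6 mice differed between animals that received dimethyl fumarate (DMF, 100 mg/kg) together with salts of monoethyl fumarate (MEF, 79.2 mg/kg) and animals that received DMF alone at the same total mass (179.2 mg/kg). Its members are the 29 jejunum arrays of these groups, chosen by organ and dose in the sample titles, out of 76 jejunum arrays and 550 arrays from 7 organs in the series. The DMF+MEF groups held 5 mice at 6 h and 8 mice at 12 h, and the DMF 179.2 groups held 8 mice at each time. Every animal received a single dose in hydroxypropyl methylcellulose, and MEF was a mixture of its calcium, magnesium and zinc salts. The DMF+MEF groups rest on the titles alone, because the source field of the same samples names only DMF 100. Titles number the animals, 1 array each, while their age and sex and the route of dosing are not given in the sources used here. Differences are given as DMF+MEF minus DMF 179.2 on the log2 scale, within each time and averaged over both times, for 17097 genes with 1 probe set each. A gene is said to have risen or fallen, or to have been called, where the adjusted p of limma's moderated test over all 17097 genes was below 0.05.

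DMF is the dimethyl ester of fumaric acid, and MEF carries a single ethyl ester and a free acid group. Fumarate esters react with thiols of proteins such as KEAP1, the adaptor that marks the transcription factor NRF2 for degradation. When KEAP1 is modified, NRF2 accumulates and raises genes for glutathione synthesis, thioredoxin reduction, NADPH supply, quinone reduction and conjugation of foreign compounds. The jejunum is the stretch of small intestine whose enterocytes absorb most nutrients.

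The comparison called 74 of the 17097 genes (0.433%), of which 23 were higher (0.135%) and 51 were lower (0.298%) with DMF+MEF than with DMF 179.2. The genes that fell included Gclc and Gss of glutathione synthesis, the glucuronosyltransferase Ugt2b5, the thioredoxin reductase Txnrd1 and the phosphoglucomutase Pgm1. None of those that rose was a member of a pathway or marker list. Most of the differences were small: 69 of the 74 were under 0.5 log2 (1.41-fold) in size. In 72 of the 74 the sign was the same at 6 h and at 12 h, and in 47 the size was smaller at 12 h. Because the genes were called on the average of both times, equal signs were favoured, so that count is no separate evidence. Taken alone, 6 h called 21 genes (0.123%), with 4 higher (0.0234%) and 17 lower (0.0994%), and 12 h called 9 genes (0.0526%), with 5 higher (0.0292%) and 4 lower (0.0234%). No gene was called at both times taken alone. An unadjusted p below 0.05 was reached by 11.1% of genes in the mean of both times. The count over both times was 46 without DMF+MEF mouse 85 of 6 h, and without DMF+MEF mouse 89 of 6 h the 6 h count was 57 and the 12 h count 23. The 12 h count can move with a 6 h mouse because all groups share 1 estimate of the spread.

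For most genes the interval of the difference was narrow. The 95% interval of the difference over both times lay within 0.5 log2 on either side of 0 for 16365 of 17097 genes (95.7%). This share includes genes without measurable signal, whose narrow intervals bound no difference. At the floor, the lowest level of the arrays of a time, lay 10.95% of genes on every 6 h array and 8.22% on every 12 h array. Genes whose probe sets repeat a higher value across mice are not in these shares. A p that misses the threshold does not show that the treatments acted alike, so intervals are given below for the genes that were not called.

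**Figure D1:**
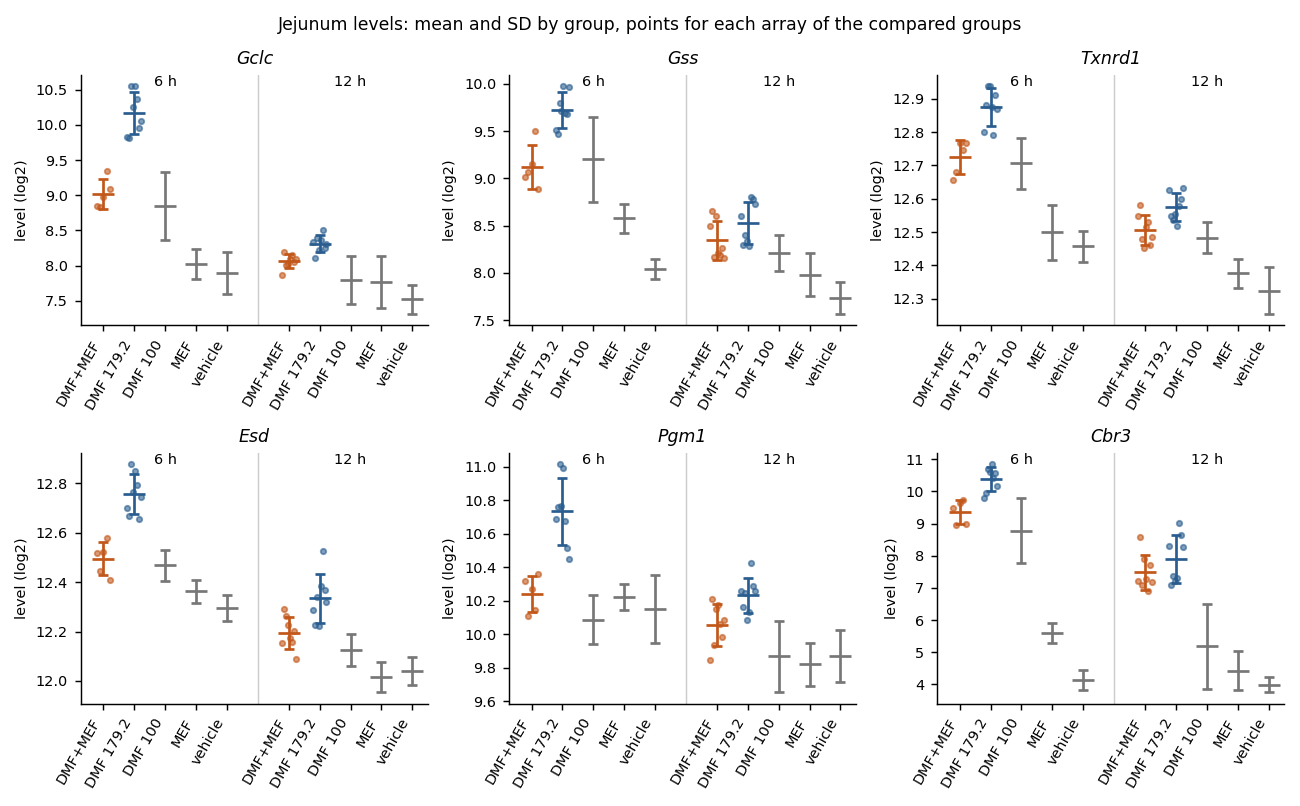
Log2 levels of 6 genes by group at 6 h and 12 h, with points for each mouse of the compared groups and bars for the mean and SD of every group, including DMF 100, MEF salts and vehicle. Gclc shows no overlap between DMF+MEF (8.83 to 9.35) and DMF 179.2 (9.81 to 10.55) at 6 h, while at 12 h the groups of all 6 genes overlap.

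Promoter sequence is shown for 2 genes that fell and have a window at a start site with the core of the antioxidant response element. NRF2 binds to this element with small Maf proteins. The core searched was TGACNNNGC on both strands in windows of 300 bases, 250 before and 50 after each start, taken from RefSeq on GRCm38.p6. Capitals mark the matches, all of which read on the minus strand relative to the gene. Txnrd1 encodes the cytosolic thioredoxin reductase, and the window is the second of its 3, at chr10:82858956-82859255 on the plus strand, with 1 match starting 92 bases before the start:
Txnrd1: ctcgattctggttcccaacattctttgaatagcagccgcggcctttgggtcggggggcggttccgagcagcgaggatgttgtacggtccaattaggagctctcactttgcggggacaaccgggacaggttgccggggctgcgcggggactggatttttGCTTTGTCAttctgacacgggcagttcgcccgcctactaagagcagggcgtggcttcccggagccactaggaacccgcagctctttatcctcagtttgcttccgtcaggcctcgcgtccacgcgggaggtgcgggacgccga
Pir encodes pirin, an iron-binding nuclear protein, and its single window at chrX:164269181-164269480 on the plus strand holds 2 matches:
Pir: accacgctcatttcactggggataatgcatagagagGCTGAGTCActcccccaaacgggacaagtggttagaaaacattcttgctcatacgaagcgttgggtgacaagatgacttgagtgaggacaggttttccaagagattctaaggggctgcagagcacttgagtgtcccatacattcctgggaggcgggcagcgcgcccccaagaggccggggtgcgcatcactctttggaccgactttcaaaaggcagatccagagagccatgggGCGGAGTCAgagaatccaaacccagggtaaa
Windows 1 and 3 of Txnrd1 and the only window of Gss held no match, and no window was available for Gclc. The core was found in 5 of the 39 called lower genes with a window (12.8%) and in 5 of the 21 called higher genes with a window (23.8%). Among all tested genes with a window it was found in 2178 of 13514 (16.1%), and a match is a description of letters, not of binding.

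Gclc and Gss fell among the genes of glutathione synthesis. Gclc, the catalytic subunit of glutamate-cysteine ligase and the rate-limiting step of glutathione synthesis, had log2 levels of 8.85, 8.83, 8.98, 9.35 and 9.09 in the 5 DMF+MEF mice at 6 h, against a lowest of 9.81, a median of 10.15 and a highest of 10.55 in the 8 DMF 179.2 mice. Every DMF+MEF mouse lay below every DMF 179.2 mouse at that time. At 12 h the levels were 7.87, 8.07 and 8.19 (lowest, median, highest) with DMF+MEF and 8.10, 8.32 and 8.51 with DMF 179.2, so the ranges overlapped slightly. The difference was -1.15 at 6 h (95% interval -1.45 to -0.85, 2.22-fold lower, adjusted p = 2.82e-06) and -0.25 at 12 h (-0.52 to 0.02, adjusted p = 0.534). Over both times it was -0.70 ± 0.10 (SE; adjusted p = 1.98e-05), and the change from 6 h to 12 h was 0.90 with an adjusted p of 0.115, which did not pass. At 6 h the mean Gclc level with DMF+MEF, 9.02 ± 0.21 (SD, n = 5), stood beside 10.17 ± 0.30 with DMF 179.2 (n = 8), 8.84 with DMF 100, 8.02 with MEF salts and 7.89 with vehicle.

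Gss, glutathione synthetase, which completes the tripeptide, had levels of 9.02, 9.07, 9.16, 9.50 and 8.89 with DMF+MEF at 6 h and of 9.47, 9.70 and 9.98 (lowest, median, highest) with DMF 179.2. A single DMF+MEF mouse reached into the DMF 179.2 range. The difference was -0.60 at 6 h (adjusted p = 0.00782), -0.19 at 12 h (95% interval -0.39 to 0.02) and -0.39 ± 0.08 over both times (adjusted p = 0.0048). Gclm, the modifier subunit that partners Gclc, had 9.69, 9.55, 9.68, 9.74 and 9.49 with DMF+MEF at 6 h, all below the DMF 179.2 range of 9.85 to 10.48. Its difference over both times, -0.29 (95% interval -0.50 to -0.09), did not pass (adjusted p = 0.207). Of the 13 measured genes of glutathione synthesis and recycling, Gclc and Gss fell and none rose, and the list median was -0.01 against 0.00 for all genes.

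Among the glutathione transferases, which attach glutathione to electrophiles, 1 of 18 measured members fell. Gsta4, which acts on aldehydes from lipid peroxidation, had levels of 11.95, 11.52, 11.79, 11.99 and 11.33 with DMF+MEF at 6 h and of 12.15, 12.48 and 13 (lowest, median, highest) with DMF 179.2. The 6 h ranges did not overlap. The difference over both times was -0.58 ± 0.15 (adjusted p = 0.0486), and it did not pass without DMF+MEF mouse 84 (-0.56), mouse 85 (-0.59) or mouse 89 (-0.53). Gstm4 had the most negative difference of this list, -1.0, with an adjusted p of 0.16, and the list median was -0.17.

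The list of 29 measured NRF2 target genes had a median difference of -0.14, against 0.00 for all genes, and 26 of its members were below 0. It holds 5 called genes, all lower: Gclc and Gsta4 above, Txnrd1, Taldo1 and Tkt. None rose. At an unadjusted p below 0.05, 17 of the 29 were lower, beside 6.06% of all genes. The median was -0.22 at 6 h and -0.09 at 12 h. The members of this and every other list were chosen with earlier results of the same data known. The counts therefore describe the lists and are no independent evidence of their direction. Beside the calls of each list stands the share of all genes called lower, 0.298%.

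Txnrd1 was at 12.66, 12.68, 12.77, 12.75 and 12.77 with DMF+MEF at 6 h and at 12.79, 12.88 and 12.94 (lowest, median, highest) with DMF 179.2. The groups came close without overlapping. Its difference was -0.15 at 6 h (adjusted p = 0.0206) and -0.11 ± 0.02 over both times (adjusted p = 0.0048), 1.08-fold lower. Srxn1, sulfiredoxin, which restores oxidised peroxiredoxins, differed by -0.15 (95% interval -0.22 to -0.07) and narrowly missed the threshold (adjusted p = 0.062). It passed without DMF+MEF mouse 89, where the difference was -0.17.

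Taldo1 and Tkt, the transaldolase and transketolase of the pentose phosphate pathway, fell by 0.13 and 0.11 on the log2 scale over both times (adjusted p = 0.0118 and 0.0048). Tkt was the only named gene whose groups were apart at both times: it was at 13.24, 13.32, 13.24, 13.32 and 13.33 with DMF+MEF against 13.34 to 13.43 with DMF 179.2 at 6 h, and at 12.98 to 13.10 with DMF+MEF against 13.10 to 13.20 with DMF 179.2 at 12 h. A second, dimmer Tkt probe set differed by 0.03, and the mean of both probe sets did not pass. Of the 8 measured genes of NADPH supply, these 2 fell and none rose. Me1, malic enzyme, differed by -0.56 with an adjusted p of 0.28.

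Nqo1, the NAD(P)H quinone dehydrogenase often used as a readout of NRF2, was at 9.97, 9.93, 10.24, 10.36 and 10.07 with DMF+MEF at 6 h and at 10.20, 10.42 and 10.66 (lowest, median, highest) with DMF 179.2. The ranges overlapped, and the difference over both times was -0.19 (95% interval -0.34 to -0.04, adjusted p = 0.261). Cbr3, a carbonyl reductase, was at 9.49, 8.96, 9.65, 9.72 and 8.99 with DMF+MEF and at 9.79, 10.50 and 10.85 (lowest, median, highest) with DMF 179.2 at 6 h, where the groups were apart. Over both times its difference of -0.72 did not pass (95% interval -1.20 to -0.24, adjusted p = 0.177), and the 12 h ranges overlapped. The aldo-keto reductases Akr1c19 (-0.56, -0.86 to -0.26, adjusted p = 0.0696) and Akr1b8 (-0.42, -0.80 to -0.03, adjusted p = 0.39) did not pass either. Aldh1a7, an aldehyde dehydrogenase, did: it was at 10.14, 10.25, 10.10, 10.27 and 9.93 with DMF+MEF and at 10.41 to 10.80 with DMF 179.2 at 6 h, and fell by 0.39 over both times (adjusted p = 0.0174). It was the only called member among 19 measured genes of quinone and carbonyl reduction, 16 of which were below 0.

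**Figure D2:**
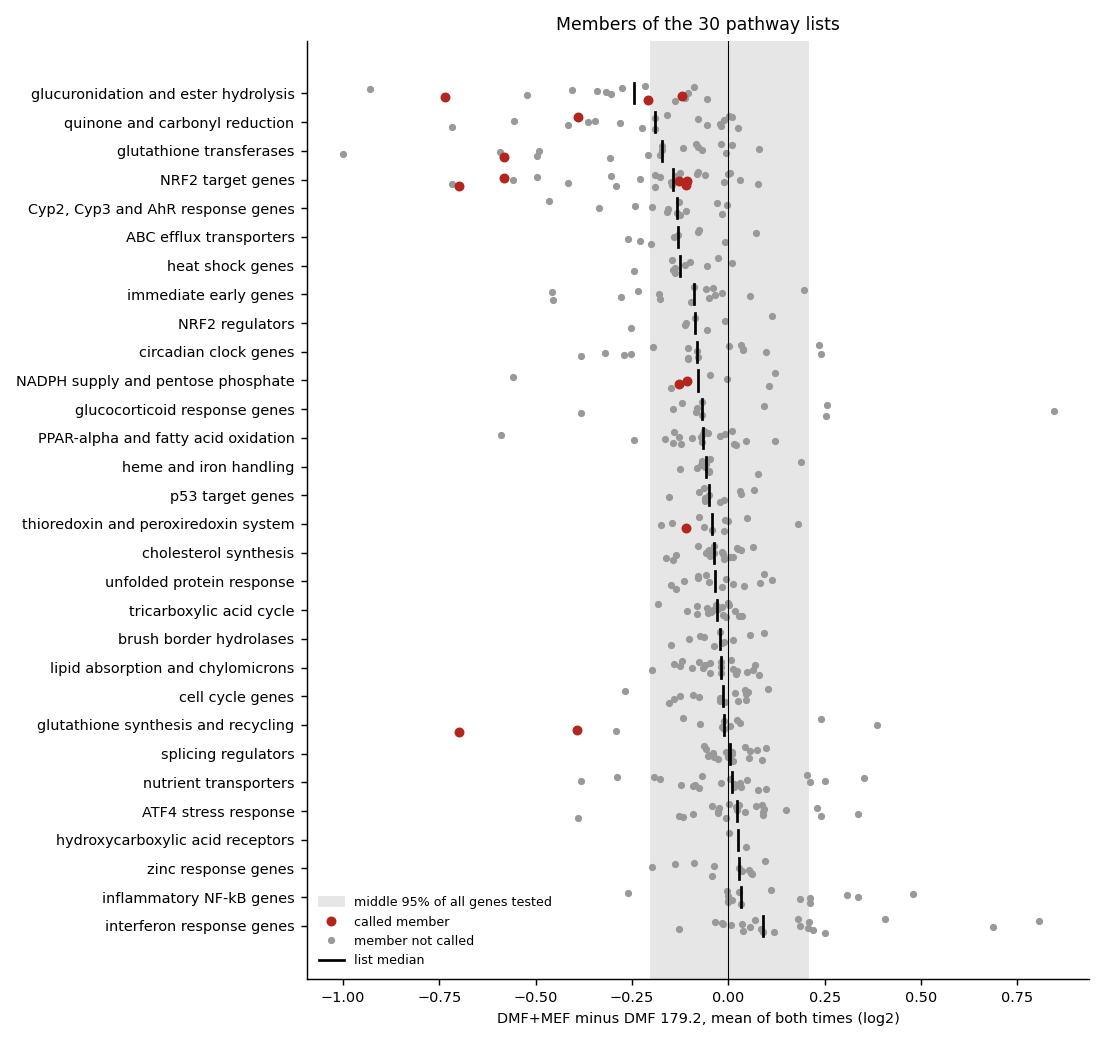
Differences of the measured members of 30 pathway lists, DMF+MEF minus DMF 179.2 averaged over both times (log2), with called members in red, list medians as bars and the middle 95% of all genes shaded. Called members occur in 7 lists and all lie below 0, and the lowest median, -0.25, belongs to glucuronidation and ester hydrolysis.

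Glucuronidation joins glucuronic acid to drugs and their breakdown products, and carboxylesterases split ester drugs such as fumarates. All 16 measured members of this list were below 0, with a median of -0.25 against 0.00 for all genes. Of them 3 fell, beside 0.298% of all genes: Ugt2b5, Ugp2 and Ugt2b34. This list too was drawn up with earlier results of these data known, so its counts are no independent evidence. Ugt2b5, a UDP-glucuronosyltransferase, was at 9.83, 9.44, 9.96, 10.06 and 8.75 with DMF+MEF at 6 h and at 9.99, 10.52 and 11.24 (lowest, median, highest) with DMF 179.2. Only the highest DMF+MEF mouse lay within the DMF 179.2 range. The difference over both times was -0.73 ± 0.17 (adjusted p = 0.0247), and without DMF+MEF mouse 89, which had the lowest level, it was -0.63 with an adjusted p of 0.0718. Ugp2, which makes the UDP-glucose from which UDP-glucuronic acid is formed, fell by 0.21 (adjusted p = 0.00499), with -0.20 at 6 h and -0.21 at 12 h. Ugt2b34 fell by 0.12 (adjusted p = 0.0266) and did not pass without DMF+MEF mouse 83 (-0.12) or mouse 89 (-0.10). The carboxylesterase Ces1g had a larger difference, -0.93 (95% interval -1.43 to -0.43), which did not pass (adjusted p = 0.0703). Ugt2b5, Gsta4 and Aldh1a7 belong to families of similar sequence, and binding of relatives to their probe sets was not tested.

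Esd gave the smallest p of all 17097 genes and was chosen after its values were seen. It encodes S-formylglutathione hydrolase, an esterase that releases glutathione at the end of formaldehyde oxidation. It was at 12.52, 12.45, 12.52, 12.58 and 12.41 with DMF+MEF at 6 h, all below the DMF 179.2 range of 12.65 to 12.88. At 12 h it ranged over 12.09 to 12.29 with DMF+MEF and 12.22 to 12.53 with DMF 179.2. The difference was -0.26 at 6 h (adjusted p = 2.71e-05), -0.14 at 12 h (adjusted p = 0.0569) and -0.20 ± 0.03 over both times (adjusted p = 8.04e-07). Its dimmer probe sets differed by -0.45 and -0.05, and the mean of the 3 did not pass.

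Pgm1, Pfkl and Phkb, which act in glycogen and sugar breakdown, also fell. Pgm1, phosphoglucomutase, which interconverts glucose phosphates on the way to and from glycogen, was at 10.32, 10.11, 10.27, 10.14 and 10.36 with DMF+MEF at 6 h and at 10.45, 10.72 and 11.01 (lowest, median, highest) with DMF 179.2. The groups were apart at 6 h and overlapped at 12 h. It fell by 0.49 at 6 h (adjusted p = 0.00308) and by 0.33 over both times (adjusted p = 0.00199). Pfkl, the liver-type phosphofructokinase of glycolysis, fell by 0.29 (adjusted p = 0.0173). Phkb, a regulatory subunit of phosphorylase kinase, fell by 0.27 (adjusted p = 0.0236), but did not pass without DMF+MEF mouse 83 (-0.24) or mouse 85 (-0.25). No list of such enzymes was drawn up, so they are named as single genes of the rule and not as a group.

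The largest fall among called genes was that of Tppp, a protein that promotes tubulin polymerisation. It was at 6.37, 6.30, 6.79, 7.52 and 6.17 with DMF+MEF at 6 h and at 7.04, 7.98 and 8.43 (lowest, median, highest) with DMF 179.2, with 1 DMF+MEF mouse inside the range of the other group. Its difference over both times was -0.99 ± 0.23 (1.98-fold lower, adjusted p = 0.0271), and it missed the threshold without DMF+MEF mouse 83 (-0.95), mouse 84 (-0.95) or mouse 89 (-0.93). In vehicle mice its mean was 7.56 at 6 h and 8.15 at 12 h, beside DMF 179.2 means of 7.84 and 8.15. Pir fell by 0.46 (adjusted p = 0.0236), with means of 8.01 ± 0.35 with DMF+MEF, 8.62 ± 0.30 with DMF 179.2 and 5.48 with vehicle at 6 h, and missed the threshold without DMF+MEF mouse 89 (-0.40).

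Other called genes that fell were Mllt11 (-0.29, adjusted p = 0.00125), Qrsl1, a subunit of the mitochondrial amidotransferase that completes glutaminyl-tRNA (-0.37, adjusted p = 0.0291), Smc5 of the SMC5/6 complex that acts in DNA repair (-0.28, adjusted p = 0.0486), Lars2, the mitochondrial leucyl-tRNA synthetase (-0.25, adjusted p = 0.00925), and Ripk4, a kinase of epithelial differentiation (-0.22, adjusted p = 0.0227). The Mllt11 groups were apart at 6 h, where its level was 8.34 to 8.73 with DMF+MEF and 8.74 to 9.17 with DMF 179.2. Qrsl1 missed the threshold without DMF+MEF mouse 83 (-0.36), 85 (-0.37) or 86 (-0.37), Smc5 without mouse 85 (-0.27), 86 (-0.23) or 89 (-0.23), and Ripk4 without mouse 83 (-0.21). A second Smc5 probe set of nearly the same level (6.28 beside 6.38) differed by -0.01, with 0.07 at 6 h, and a dimmer Qrsl1 probe set by -0.13.

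**Figure D3:**
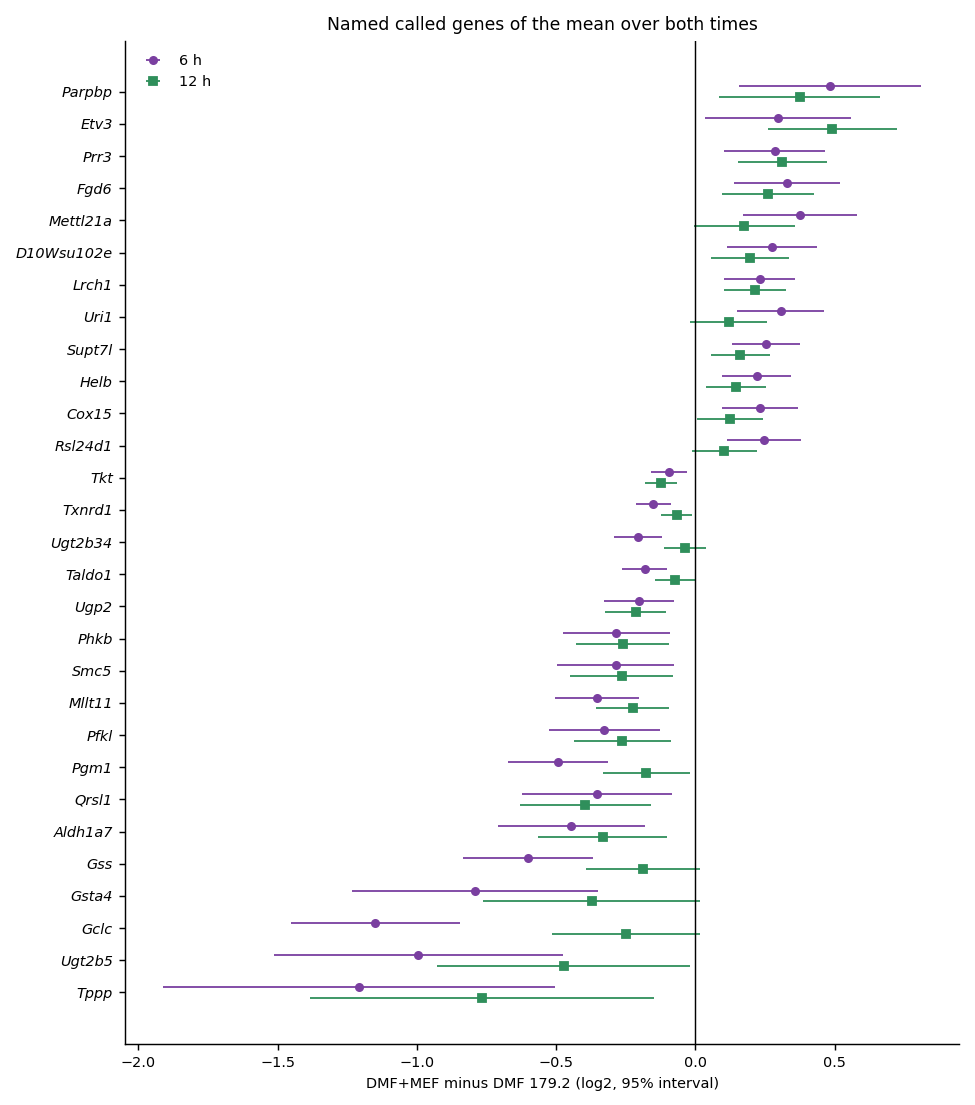
Differences of the called genes named by the rule for the mean of both times and for the lists, without those named after their values were seen, DMF+MEF minus DMF 179.2 (log2), with 95% intervals at 6 h (circles) and at 12 h (squares). The genes plotted keep their sign at both times, which calling them on the mean favours. The largest gap between the times among them is that of Gclc, -1.15 at 6 h and -0.25 at 12 h.

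The 23 genes that rose did so by less. Parpbp, which binds PARP1 and restrains homologous recombination, had the largest rise, 0.43 ± 0.11 (adjusted p = 0.0486), with levels of 7.52, 7.28, 7.58, 7.63 and 7.05 with DMF+MEF at 6 h and of 6.71, 6.83 and 7.58 (lowest, median, highest) with DMF 179.2. The ranges overlapped, and the call was lost without DMF+MEF mouse 83 (0.42), 84 (0.45), 85 (0.41) or 86 (0.40). Etv3, a repressor of the ETS family, rose by 0.39 (adjusted p = 0.0152), with 0.30 at 6 h and 0.49 at 12 h. Prr3 rose by 0.30 (adjusted p = 0.00569), Fgd6, an activator of Cdc42, by 0.29 (adjusted p = 0.0119), and Lrch1 by 0.22 (adjusted p = 0.0048). A second Fgd6 probe set differed by -0.15, against the direction of the one tested.

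Supt7l, a subunit of the SAGA-type coactivator complex, was at 8.98, 9.0, 9.03, 9.15 and 9.02 with DMF+MEF at 6 h, all above the DMF 179.2 range of 8.69 to 8.90, and rose by 0.21 (adjusted p = 0.0048). Helb, DNA helicase B, was at 10.43, 10.32, 10.34, 10.41 and 10.53 with DMF+MEF at 6 h, all above 10.03 to 10.31 with DMF 179.2, and rose by 0.18 (adjusted p = 0.0174), while its dimmer probe sets differed by 0.01 and -0.09. Mettl21a, which methylates Hsp70 chaperones, rose by 0.28 (adjusted p = 0.0441), Uri1, a prefoldin-like chaperone, by 0.21 (adjusted p = 0.0412), and Cox15, an enzyme of heme A synthesis, by 0.18 (adjusted p = 0.0486). D10Wsu102e rose by 0.24 (adjusted p = 0.0184). Rsl24d1, a ribosome assembly factor, rose by 0.18 (adjusted p = 0.0453). The ribosomal protein genes Rpl37a, Rpl13a and Rps9, named after their values were seen, rose by 0.15, 0.11 and 0.08 (adjusted p = 0.0152, 0.0184 and 0.0486). An equally bright Rpl37a probe set (12.91 beside 12.94) differed by 0.05, with 0.00 at 12 h. Of these, Cox15, Rsl24d1 and Rps9 each lost the call without any of 4 of the 5 DMF+MEF mice of 6 h (0.16 to 0.18, 0.16 to 0.18 and 0.08), Mettl21a (0.25 to 0.27) and Uri1 (0.20) without mouse 84, 85 or 86, D10Wsu102e without mouse 85 (0.21), and Rpl13a without mouse 83 (0.09).

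The difference changed with time for 3 genes (0.0175% of those tested), all named after their values were seen, and for 1 without DMF+MEF mouse 83 or mouse 85 of 6 h. Clec4d, a lectin receptor of myeloid cells, was lower with DMF+MEF at 6 h (-0.90, adjusted p = 0.0354) and differed by 0.49 at 12 h (adjusted p = 0.291), a change of 1.38 (adjusted p = 0.0217). Gm38426 was lower at 6 h (-0.96, adjusted p = 2.71e-05) and had a 95% interval of -0.25 to 0.24 at 12 h, a change of 0.95 (adjusted p = 0.0217). Gpatch2 differed by 0.06 at 6 h and -0.41 at 12 h (adjusted p = 1.45e-07), a change of -0.47 (adjusted p = 0.000536). At 12 h it was at 4.14, 4.14 and 4.22 (lowest, median, highest) with DMF+MEF, where the lowest value was also the median, and at 4.18, 4.54 and 4.85 with DMF 179.2. All 3 lie below the median gene, and with limma on the genes above that median alone no gene passed at 12 h (878 at an unadjusted p below 0.05) or for the time difference (424).

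At 6 h alone, Rbm20, a splicing factor, rose by 0.50 (adjusted p = 0.0276). At 12 h alone, Lancl2 fell by 0.25 (adjusted p = 0.0361), and Sash3, an adaptor of lymphocytes, and Slc2a3, a glucose transporter, rose by 1.16 and 0.49 (adjusted p = 0.0387 and 0.0372). Another Slc2a3 probe set of nearly the same level (6.47 beside 6.57) differed by 0.28 at 12 h. The lowest Slc2a3 value with DMF+MEF at 12 h, 6.40, was also the median with vehicle. B cell marker genes also varied among the mice, and their relation to Rbm20, Lancl2, Sash3 and Slc2a3 was not tested. The mean level of these markers was above 4.5 in 1 of 5 DMF+MEF and 5 of 8 DMF 179.2 mice at 6 h, and in 5 of 8 DMF+MEF and 0 of 8 DMF 179.2 mice at 12 h. Its range at 12 h was 3.54 to 6.61 with DMF+MEF and 3.44 to 3.73 with DMF 179.2, and the median difference of the 6 measured B cell genes was 1.59 at 12 h and -0.61 at 6 h, none of them called. Ms4a1, which encodes CD20 and had the largest 12 h difference of these markers, had a median of 6.78 with DMF+MEF and 2.40 with DMF 179.2 at 12 h, close to the floor of 2.18. Pax5 had a median of 4.05 in both groups at that time, which was also the lowest value with DMF 179.2. Its highest value was 4.10 in both groups, so the probe set gave little measurable signal. In bulk tissue, a change in the number of such cells and a change in RNA per cell cannot be told apart, and the part of lymphoid tissue in these differences was not tested. With the B cell marker level as a covariate, the count over both times was 66, of which 48 were among the 74. Without the mice of both groups above 4.5 it was 102, of which 33 were among the 74, Gclc among them (-0.62, adjusted p = 0.0286), while Gss (-0.39, adjusted p = 0.0722) and Txnrd1 (-0.10, adjusted p = 0.0852) did not pass.

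**Figure D4:**
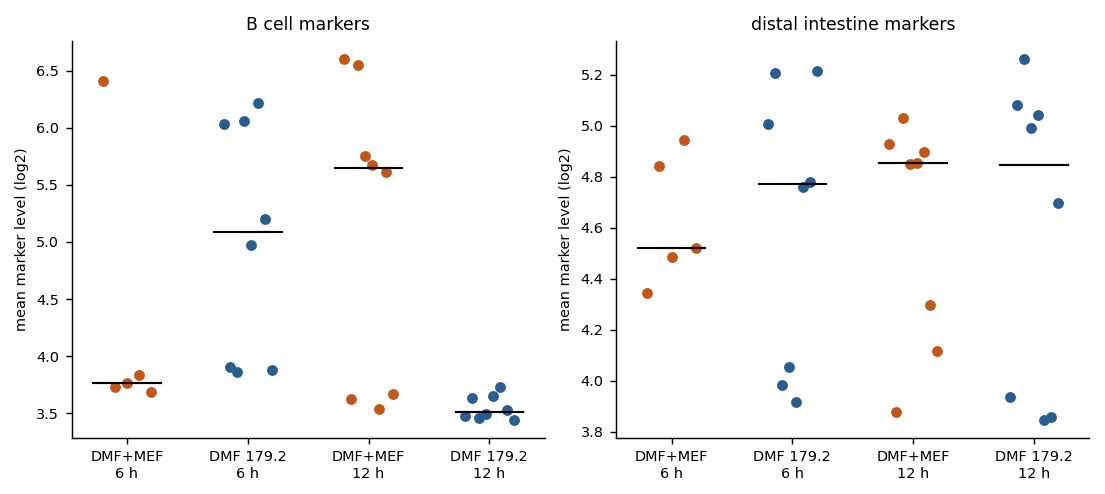
Mean log2 level of B cell markers and of distal intestine markers in each mouse by group and time, with bars at the median. At 12 h, 5 of 8 DMF+MEF mice and none of the 8 DMF 179.2 mice lie above 4.5 for B cell markers, and for distal markers 3 of 8 mice of each group lie below 4.4.

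Enterocyte markers were high in all 29 arrays: the mean of 6 enterocyte markers was 13.22 to 13.34 with DMF+MEF and 13.23 to 13.39 with DMF 179.2 at 6 h, and 12.97 to 13.22 with DMF+MEF and 12.96 to 13.28 with DMF 179.2 at 12 h. The log2 ratio of the 3′ to the 5′ probe sets of Gapdh, a sign of RNA integrity, had medians of 0.82 with DMF+MEF and 0.86 with DMF 179.2 at 6 h, and of 0.85 with DMF+MEF and 0.93 with DMF 179.2 at 12 h. That of beta-actin had medians of 1.11 with DMF+MEF and 1.18 with DMF 179.2 at 6 h, and of 1.19 with DMF+MEF and 1.22 with DMF 179.2 at 12 h. Both medians were lower with DMF+MEF at both times, with overlapping ranges, and their part in the differences was not tested. Markers of the distal intestine were low (below 4.4) in 1 of 5 DMF+MEF and 3 of 8 DMF 179.2 mice at 6 h, and in 3 of 8 mice of each group at 12 h. With this gut position as a covariate, all 74 genes were still called among 208, and Gclm (-0.29, adjusted p = 0.0185), Srxn1, Akr1c19 and Ces1g then passed too. Animal numbers run through the dose groups in order. They were split here into runs of 12, a length that the titles do not give. The groups share only places 9 to 12 of each such run. Within those places, with 4 mice a group and time, all 74 genes kept their sign and 2 were called, Gclc (-0.78, adjusted p = 0.00807) and Esd (-0.20, adjusted p = 0.000268). These mice are among those on which the 74 were called, so the kept signs are no independent evidence. With place as a covariate 72 of the 74 were still called.

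Genes of the zinc response and the remaining fixed genes did not pass. Mt1, the zinc-induced metallothionein, had means of 11.64 ± 0.16 with DMF+MEF and 11.34 ± 0.24 with DMF 179.2 at 6 h, and of 11.37 ± 0.39 with DMF+MEF and 11.75 ± 0.27 with DMF 179.2 at 12 h. The difference over both times was -0.04 (95% interval -0.30 to 0.21), with 0.29 at 6 h and -0.38 at 12 h. Slc30a1, the zinc exporter of the plasma membrane, differed by 0.06 (-0.21 to 0.33). Over both times, all 11 measured zinc response genes had intervals within 0.5 log2 of 0, with none called. At single times the intervals of Mt1 reached further, -0.09 to 0.67 at 6 h and -0.71 to -0.04 at 12 h. The average over both times therefore does not bound the difference at each time. Hcar2, the receptor through which monomethyl fumarate acts on myeloid cells, was at the floor in nearly every mouse, 2.15 at 6 h, so no difference could be measured. Hmox1, heme oxygenase, was low (means of 3.90 with DMF+MEF and 3.98 with DMF 179.2 at 6 h) and differed by 0.08 (-0.19 to 0.34). Its lowest value with DMF+MEF at 6 h, 3.68, was also the highest with DMF 100. With such repeated values, its interval may bound no difference. Nfe2l2, which encodes NRF2, differed by -0.06 (-0.21 to 0.10), and its partner Mafg by -0.25 (-0.39 to -0.12, adjusted p = 0.0629). Osgin1, an NRF2-dependent growth inhibitor, was apart at 6 h, at 9.42, 9.32, 9.40, 9.50 and 9.20 with DMF+MEF and 9.61 to 10.07 with DMF 179.2, but differed by 0.17 at 12 h and by -0.14 over both times (-0.32 to 0.03). The exporter Abcc1 differed by -0.23 (adjusted p = 0.062) and passed without DMF+MEF mouse 89 (-0.25).

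The other lists gave no call in either direction. No member passed in 23 of the 30 pathway lists, nor in any of the 23 marker lists of cell types and gut position. No list held a member that rose. The 18 measured genes of the tricarboxylic acid cycle, the pathway of fumarate itself, all had intervals within 0.5 log2 of 0 over both times. Fh1, fumarate hydratase, differed by -0.08 (-0.17 to 0.01). The interferon response genes had the highest median of the pathway lists, 0.09, with Zbp1 at 0.81 and Usp18 at 0.69 and adjusted p of 0.44 and 0.31. Of 15 immediate early genes 13 were below 0, with 6 lower and 1 higher (Myc, 0.20) at an unadjusted p below 0.05, beside 6.06% and 5.05% of all genes, and a median of -0.09. Per1, a clock gene, differed by -0.38 (-0.82 to 0.06), and Apob, the structural protein of chylomicrons, by 0.08 (-0.43 to 0.59). The intervals of Per1 and Apob were wide.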

How the data were processed

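RNA from jejunum was hybridised to Affymetrix mouse arrays. Each deposited value is the log2 signal of 1 probe set on 1 array. The submitters' processing notes name RMA, GCRMA, R 2.11.1 and limma 3.4.5 without their roles; the background step, the normalization set and the build are not given in the sources used here. About 26% of the log2 values lie at a floor of 2.15 (6 h) or 2.18 (12 h), below which levels have no order. Some probe sets repeat a higher value across mice, such as Gpatch2 at 4.36 in all 5 mice with MEF salts at 6 h. Such values are not in the 26%, so a level above the floor need not be a measured signal. Fold changes of dim genes are understated. The number of arrays limits the precision.

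Of 45141 probe sets, 28898 carry 1 gene symbol in the platform annotation, 551 several and 15588 none. For each gene the probe set with the highest mean over the 76 jejunum arrays was kept (17097 genes). The other 474 columns were not used. limma 3.58.1 in R 4.3.3 fitted 1 mean for each of 11 jejunum groups, with Benjamini-Hochberg adjustment over all genes, and the contrasts were DMF+MEF minus DMF 179.2 at 6 h, at 12 h, averaged, and 12 h minus 6 h. This is 1 pair of treatments. Moderation of the variances was weak, so dim genes with little spread can pass. On simulated data with 17097 genes, the averaged contrast recovered 76, 96, 100 and 100 percent of genes changed 1.25, 1.5, 2 and 4-fold, with 8 false genes among 194 calls. All changed genes lay above the median level, so recovery of dimmer genes was not measured. The noise was drawn independently for each gene, without a floor and without differences in place, gut position or B cell level.

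Named genes were the 12 highest and 12 lowest called genes of the averaged contrast above the median level, without sex-linked or predicted genes, the 3 highest and 3 lowest of each other contrast, up to 4 called genes a list and 21 fixed genes, 19 of them measured. The members, lists and fixed genes were chosen with earlier results of these data known. Pir, Esd, Lars2, Ripk4, Sash3, Mafg, Abcc1, Gstm4, Me1, Zbp1, Usp18, Myc, the ribosomal genes and those of the time difference were named after their values were seen. Alternatives were a further quantile normalization, the filter on dim genes, trend and robust variances, the 4 groups alone, omission of arrays, place in the run of animal numbers, the mean of probe sets, gut position and B cell level.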

Additional observations from a re-analysis of the deposited data

Results flagged for a closer look

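The difference between DMF+MEF and DMF 179.2 changed between 6 h and 12 h, by the test of the time difference, in Clec4d (1.38), Gm38426 (0.95) and Gpatch2 (-0.47). All of them are dim, and in Gpatch2 the lowest value was also the median in both groups at 6 h and with DMF+MEF at 12 h.

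In 17 of 248 gene and group pairs, 1 mouse lay far from the others of its group by Dixon's criterion. Chance gives about 1 in 20. With DMF+MEF at 6 h these were mouse 85 for Gpatch2 (4.72) and Hmox1 (4.46), mouse 86 for Supt7l (9.15) and mouse 89 for Tra2b (7.32). Mouse 89 is the only DMF+MEF mouse of that time at places 1 to 4 of its run of animal numbers, where Tra2b, a splicing factor, was also high at 12 h (7.14 to 7.83 in 4 mice). With DMF+MEF at 12 h they were mouse 34 for Gpatch2 (4.22), Gsta4 (12.22) and Nfe2l2 (11.17), and mouse 36 for Ugp2 (10.04). With DMF 179.2 at 6 h they were mouse 73 for Gpatch2 (4.45), Parpbp (7.58) and Slc2a3 (6.51), mouse 74 for Pfkl (7.29), mouse 69 for Ripk4 (10.76) and mouse 68 for Sash3 (5.21). With DMF 179.2 at 12 h they were mouse 20 for Hmox1 (3.03), mouse 18 for Rbm20 (7.03) and mouse 23 for Rps9 (12.83).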

How the results depend on the processing

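Over the alternatives run, Gclc kept its call in all of them (-0.78 to -0.62), and Esd in all but the mean of probe sets (-0.23 to -0.19). No called gene that is named changed sign, but every alternative reuses arrays on which these genes were called. Of the 40 that are named, 38 lost the call within places 9 to 12, 25 without the B cell arrays, 19 with the mean of probe sets, 16 in the 4 groups alone and 15 with B cell level. The count over both times, 74, was 117 with place as a covariate, 2 within places 9 to 12, with 4 mice a group and time, 208 with gut position as a covariate, 254 with place, gut position and B cell level together, and 46 to 106 without 1 of the 5 DMF+MEF mice of 6 h. The 6 h count, 21, was 9 within places 9 to 12, 65 with gut position, 61 without arrays with B cell markers above 4.5, 64 with the 3 covariates and 20 to 57 without 1 mouse. The 12 h count, 9, was 19 with quantile normalization, 0 without dim genes (limma; 878 at an unadjusted p below 0.05), 15 without jejunum arrays with Hoxb6 and Hoxb9, 18 with place, 3 within places 9 to 12, 45 with gut position, 18 with B cell level, 179 without the B cell arrays and 9 to 23 without 1 mouse. The time count, 3, was 0 without dim genes (424 at an unadjusted p below 0.05), 1 in the 4 groups alone, 1 without the B cell arrays and 1 to 4 without 1 mouse. The causes were not tested. The gut and B cell settings were chosen after seeing the data.

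Genes that were not called changed sign as follows: over the omissions of 1 DMF+MEF mouse of 6 h, Apob (-0.09 to 0.17), Slc30a1 (-0.03 to 0.11) and Tra2b (-0.12 to 0.18), each below 0 without mouse 89; with place, Apob (-0.08), Hcar2 (-0.00) and Tra2b (-0.08); within places 9 to 12, Apob (-0.03), Hmox1 (-0.12), Mt1 (0.21) and Tra2b (-0.15); with the mean of probe sets, Slc30a1 (-0.04); with B cell level, Nfe2l2 (0.02) and Slc30a1 (-0.07); without the B cell arrays, Slc30a1 (-0.15); with the 3 covariates, Apob (-0.09), Hcar2 (-0.01), Mt1 (0.01), Slc30a1 (-0.02) and Tra2b (-0.10).

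No paired analysis was possible because the groups share no animal numbers.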
